A study of Mus musculus with 3 samples.

Results

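The genes described here are 10 genes of the inflammasome and the interleukin-1 (IL-1) pathway. They were chosen by name, with earlier results of these data known, among 16072 named genes of an RNA-seq table of mouse bone marrow (BM) cells. All 10 were found in the table, and 9 of them reached a mean FPKM of at least 1 over the 3 libraries, the level from which genes were compared. Only Il1a lay below it. FPKM is the number of sequenced fragments per kilobase of transcript, scaled to the mapped fragments of the library.

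The cells were Ly6G+ myeloid cells from the BM of C57BL/6 mice. Every mouse carried a subcutaneous graft of B16.F10 melanoma and was given, 1 week after it, an adeno-associated virus (AAV) vector in the muscle. The groups compared were AAV-Ctrl, an empty vector (2 libraries), and AAV-IL-27, a vector that makes the mouse produce interleukin-27 (1 library). IL-27 was driven by a CAG promoter, which is active in most cell types, and the study places the collection of BM Gr-1+ cells 3 weeks after the vector. The labels give no age for these mice. Where 3 values are given in a row, they stand for the first AAV-Ctrl library, the second one and AAV-IL-27. Since AAV-IL-27 is represented here by 1 listed library from 1 mouse, the spread among AAV-IL-27 mice could not be estimated and no test was run.

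IL-1 signalling is controlled at several steps. The precursors of IL-1β and IL-18 are made without a secretion signal, and caspase-1 cleaves them once a sensor such as NLRP3 and the adaptor ASC have assembled an inflammasome. Caspase-1 and caspase-11 also cleave gasdermin D, whose pores release the cytokines and can kill the cell, while an antagonist and a decoy receptor hold IL-1 back outside it. Neutrophils, the main Ly6G+ cells of the BM, are a known source of IL-1β and carry much of the decoy receptor.

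Il18 was the member with the lowest value relative to AAV-Ctrl among those compared, and Il1r2 and Il1rn were at the other end. Of the 9 members compared, 0 were lower and 0 were higher than each AAV-Ctrl library by at least 1 log2 unit, against 2.32% and 0.307% of the 9130 genes with a mean FPKM of 1 or more. At a smaller step of 0.5 log2 units, 1 member, Il18, was lower and 0 were higher, against 7.01% and 1.57% of all genes. The AAV-IL-27 value lay above both AAV-Ctrl values for 4 members and below both for 3, and the same positions held 38.9% and 41.9% of all genes. The median log2 difference of the 9 members was 0.13, beside -0.0054 for all genes. Leaving out AAV-Ctrl 1 gave a median of 0.22, and leaving out AAV-Ctrl 2 gave 0.044. Differences are on the log2(FPKM + 1) scale, with the AAV-Ctrl mean taken from the AAV-IL-27 value, and this scale understates the change of low genes.

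The libraries were of about equal depth. From the steps between low FPKM values, depth was estimated at about 19050000, 19400000 and 19050000 fragments. Between the AAV-Ctrl libraries, the log2 difference of a gene had a median size of 0.087 and a 95th percentile of 0.34. The sorted antigen itself was well expressed, with Ly6g at 711.8, 766.1 and 586.3 FPKM, and the 12 neutrophil genes, led by S100a9 and S100a8, held 0 genes past 1 log2 unit. Of 8 monocyte genes compared, led by Ly6c2 and Csf1r, 0 were past it. They ranged from -0.62 (Irf8) to 0.53 (Ccr2), with 4 above both AAV-Ctrl libraries and 2 below both. The 10 listed monocyte genes summed to between 1178 and 1298 FPKM in the 3 libraries, and most of this sum was Ly6c2. Some other cell type lists held genes past 1 log2 unit. Of 15 macrophage genes, led by Hmox1 and Slc40a1, 13 were lower by at least 1 log2 unit than both AAV-Ctrl libraries. The same was true of 8 of 8 erythroid genes (Hba-a1 and Alas2 leading), 5 of 5 B cell genes (Cd79a, Cd79b) and 3 of 5 megakaryocyte genes (Ppbp, Pf4). Of the other lists, 1 of 8 dendritic cell genes (Itgax), 2 of 8 T and NK cell genes (Cd3d, Nkg7) and 6 of 8 basophil and eosinophil genes (Prg2 and Siglecf leading) could be compared, and 0 of these were past it. In bulk RNA, fewer cells of a type and less RNA per cell cannot be told apart.

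Il1b, which encodes the IL-1β precursor (NCBI Gene number 16176, minus strand of chromosome 2, from 129364569 to 129371164), was by far the most abundant member. It measured 500.0 and 380.9 FPKM in AAV-Ctrl 1 and 2 and 478.7 FPKM in AAV-IL-27, which placed it at rank 124, 156 and 130 among all named genes. The AAV-IL-27 value lay between the AAV-Ctrl values. The AAV-Ctrl mean was 440.5 ± 84.2 FPKM (SD, n = 2), the log2 difference was 0.13, and it was -0.063 against AAV-Ctrl 1 alone and 0.33 against AAV-Ctrl 2 alone. The difference between the AAV-Ctrl libraries, -0.39, was larger in size than these. On the opposite strand, exons of Il1b overlap those of Il1bos, listed at 1.22, 0.9 and 1.57 FPKM.

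**Figure D1:**
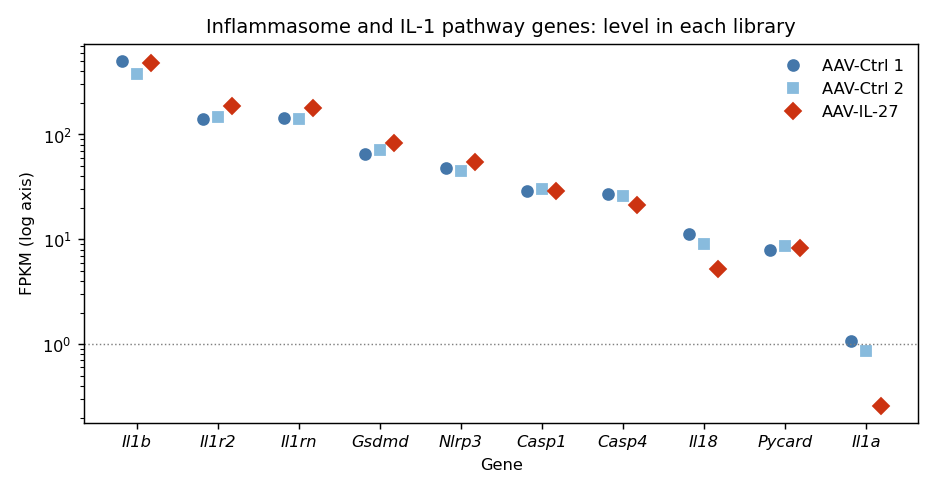
FPKM (log axis) of the 10 genes in AAV-Ctrl 1 (circles), AAV-Ctrl 2 (squares) and AAV-IL-27 (diamonds), ordered by mean level, with a dotted line at an FPKM of 1. Il1b leads at 380.9 to 500.0 FPKM, Il1a closes at 0.26 to 1.07 FPKM, and the AAV-IL-27 symbol stands clearly below both AAV-Ctrl symbols in Il18 and Il1a.

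Il1a, its neighbour 54382 bases away on the same strand (NCBI Gene 16175, chromosome 2 from 129299609 to 129310186), encodes IL-1α, which is active without cleavage by caspase-1. It was scarce in these cells, at 1.07 and 0.87 FPKM in AAV-Ctrl 1 and 2 and 0.26 FPKM in AAV-IL-27. The AAV-IL-27 value was 26.8% of the AAV-Ctrl mean of 0.97 ± 0.14 FPKM (SD, n = 2), and the log2 difference was -0.64. These values correspond to an estimated 39, 32 and 9 fragments, and the exact 95% Poisson intervals were 27.7 to 53.3, 21.9 to 45.2 and 4.12 to 17.1. The interval of the AAV-IL-27 library does not overlap the others, but it covers counting error only. With a pseudocount of 0.1 in place of 1, the log2 difference of Il1a was -1.57. Its exons overlap those of Gm14023 on the opposite strand, listed at 0.63, 0.6 and 0.41 FPKM, and since the counting is not stated to have used strand, the reads of this pair cannot be told apart.

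The promoters of this pair are shown because they belong to the most and the least abundant member, together with those of Il18 and Il1r2, the members with the lowest and the highest log2 difference among those compared. Each runs from 250 bases before to 50 bases after a transcription start in RefSeq (GRCm38.p6), 5′ to 3′ on the strand of the gene. Capitals mark matches, on either strand, to GAGGAAG (a PU.1 motif), TTCNNNGAA (the GAS motif bound by STAT factors), TTGCNNAA (a C/EBP motif) or an NF-κB motif searched as GGG and CC with any 5 bases between them. Il1b lies at chr2:129371090-129371389 (minus strand), Il1a at chr2:129309923-129310222 (minus strand), Il18 at chr9:50554450-50554749 (plus strand) and Il1r2 at chr1:40085843-40086142 (plus strand).
Il1b: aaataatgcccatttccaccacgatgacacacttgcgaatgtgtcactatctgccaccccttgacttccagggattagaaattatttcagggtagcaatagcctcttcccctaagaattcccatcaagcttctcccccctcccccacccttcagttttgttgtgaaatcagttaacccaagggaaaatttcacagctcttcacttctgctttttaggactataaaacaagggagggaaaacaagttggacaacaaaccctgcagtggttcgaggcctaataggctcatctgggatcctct
Il1a: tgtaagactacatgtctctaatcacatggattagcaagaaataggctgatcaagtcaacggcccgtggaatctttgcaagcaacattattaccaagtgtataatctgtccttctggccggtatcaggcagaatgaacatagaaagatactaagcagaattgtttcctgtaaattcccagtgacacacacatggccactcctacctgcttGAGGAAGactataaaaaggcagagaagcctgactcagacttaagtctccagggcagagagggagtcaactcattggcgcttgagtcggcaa
Il18: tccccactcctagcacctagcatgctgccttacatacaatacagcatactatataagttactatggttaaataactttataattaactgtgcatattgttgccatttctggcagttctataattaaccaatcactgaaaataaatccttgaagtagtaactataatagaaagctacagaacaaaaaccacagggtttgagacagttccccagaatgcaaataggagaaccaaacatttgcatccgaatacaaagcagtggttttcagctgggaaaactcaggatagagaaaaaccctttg
Il1r2: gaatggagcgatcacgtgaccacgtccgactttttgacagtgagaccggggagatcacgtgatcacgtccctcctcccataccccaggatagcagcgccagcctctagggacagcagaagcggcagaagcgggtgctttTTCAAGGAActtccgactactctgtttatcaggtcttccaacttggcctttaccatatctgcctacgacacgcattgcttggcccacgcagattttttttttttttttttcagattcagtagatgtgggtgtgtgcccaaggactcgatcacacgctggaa

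Of these windows, that of Il1a held 1 match, a PU.1 motif starting 41 bases before the transcription start. That of Il1r2 held 1 match, a GAS motif starting 111 bases before the start used. This Il1r2 window lies inside the RefSeq span of the gene, which begins at 40084692, so it is not at the first base of the gene. The Il1b and Il18 windows held no match to these letters. The 9 members with a RefSeq promoter had 13 windows, of which 1 held the GAS motif, 8 the NF-κB motif, 1 the C/EBP motif and 3 the PU.1 motif. The 8 windows with the NF-κB motif belonged to 4 members, since a gene can have several starts. Among all 32851 promoter windows of this length, 8.30% held the GAS motif, 50.8% the NF-κB motif, 10.8% the C/EBP motif and 13.6% the PU.1 motif. A match is a run of letters and not a site of binding.

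Il18 had the lowest log2 difference of the members compared. It encodes the precursor of IL-18, an activator of interferon-γ production in T and NK cells (NCBI Gene 16173, chromosome 9 from 50554700 to 50581841, plus strand). It measured 11.4 and 9.02 FPKM in AAV-Ctrl 1 and 2 and 5.24 FPKM in AAV-IL-27, so that the AAV-IL-27 library lay below both. That value was 51.4% of the AAV-Ctrl mean of 10.2 ± 1.65 FPKM (SD, n = 2). The log2 difference was -0.83, or -0.99 and -0.68 against AAV-Ctrl 1 and AAV-Ctrl 2 singly, while the AAV-Ctrl libraries differed by -0.30. An estimated 171, 138 and 79 fragments lay behind these values. The exact 95% Poisson interval of the AAV-IL-27 library, from 62.5 to 98.5, did not reach those of the AAV-Ctrl libraries, from 146 to 199 and from 116 to 163. These intervals cover counting error only and not the spread among mice. Among the 9130 genes compared, 363 (3.98%) had a lower log2 difference.

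Il18, Il1a and, further on, Casp4 and Casp1 lay below both AAV-Ctrl libraries, as did the 15 macrophage genes counted above. Casp1 did so only narrowly, at 97.5% of the AAV-Ctrl mean. A position below both AAV-Ctrl libraries was held by 41.9% of the 9130 genes compared. The 15 macrophage markers summed to 1022 and 993 FPKM in AAV-Ctrl 1 and 2 and to 359 FPKM in AAV-IL-27, and 0 of the 15 were listed at 0. Of the 15, 13 were at a lower percentage of the AAV-Ctrl mean than Il18, with C1qa at 27.8%, Mrc1 at 16.1% and Cd163 at 11.3%, while Adgre1 was at 83.2% and Slc40a1 at 75.5%. All genes compared in the erythroid (8), B cell (5) and megakaryocyte (5) lists also lay below both AAV-Ctrl libraries. The part of any of these cell types in the lower Il18, Il1a, Casp4 and Casp1 values was not tested.

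**Figure D2:**
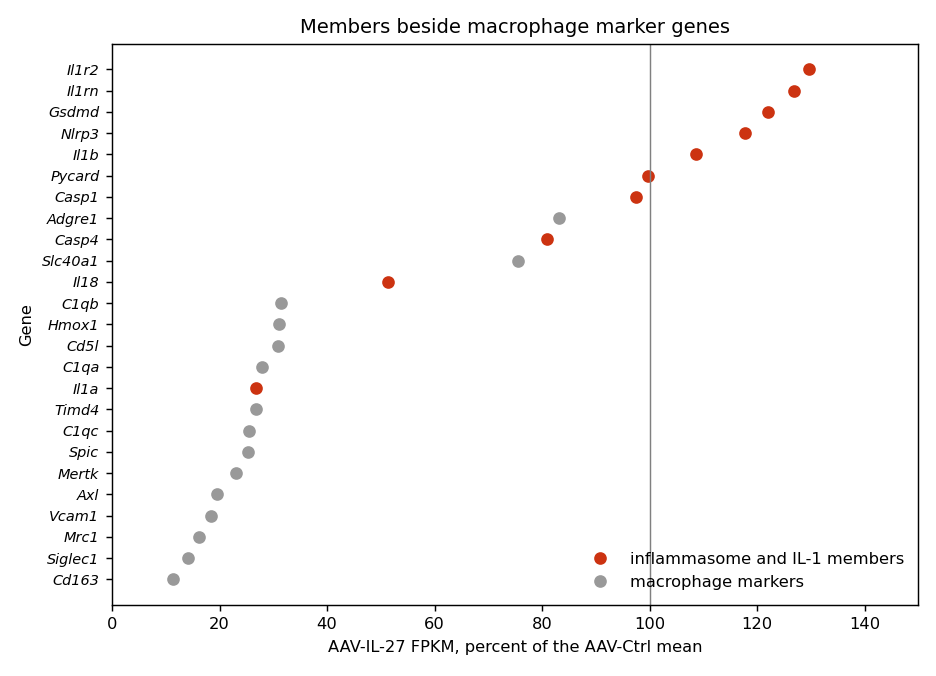
The AAV-IL-27 FPKM as a percentage of the AAV-Ctrl mean for the 10 members (red) and 15 macrophage marker genes (grey), 1 point per gene, with a line at 100. Il1a (26.8%) lies among the macrophage markers, Il18 (51.4%) lies between the lower 13 markers and Slc40a1 (75.5%), Casp4 (80.9%) lies between Slc40a1 and Adgre1 (83.2%), and Il1r2 (129.6%) and Il1rn (126.9%) lie at the other end.

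Il1rn and Il1r2, which restrain IL-1 outside the cell, were the next most abundant members after Il1b. Il1rn encodes the IL-1 receptor antagonist, which occupies the receptor without signalling (NCBI Gene 16181, chromosome 2 from 24336860 to 24351491, plus strand). It measured 142.4 and 141.0 FPKM in AAV-Ctrl 1 and 2 and 179.8 FPKM in AAV-IL-27. The AAV-IL-27 library was above both, at 126.9% of the AAV-Ctrl mean of 141.7 ± 0.99 FPKM (SD, n = 2). The log2 difference was 0.34 where the AAV-Ctrl libraries differed by -0.014. Over all genes compared, the difference between the AAV-Ctrl libraries had a 95th percentile size of 0.34. The table gives a single value for 3 transcripts of Il1rn, so its secreted and intracellular forms were not separated.

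Il1r2 encodes the decoy receptor, which binds IL-1 and cannot signal (NCBI Gene 16178, chromosome 1 from 40084692 to 40125230, plus strand). Its level was 141.7 and 146.3 FPKM in AAV-Ctrl 1 and 2 and 186.6 FPKM in AAV-IL-27, again above both AAV-Ctrl libraries. The AAV-Ctrl mean was 144.0 ± 3.26 FPKM (SD, n = 2) and the log2 difference was 0.37. Between the AAV-Ctrl libraries it was 0.046 for this gene, with a 95th percentile size of 0.34 over all genes. Of the genes compared, 404 had a higher log2 difference than Il1r2 and 482 a higher one than Il1rn. The signalling receptor Il1r1 was barely detected, at 0.34, 0.3 and 0.42 FPKM, far below the decoy in each of the 3 libraries.

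**Figure D3:**
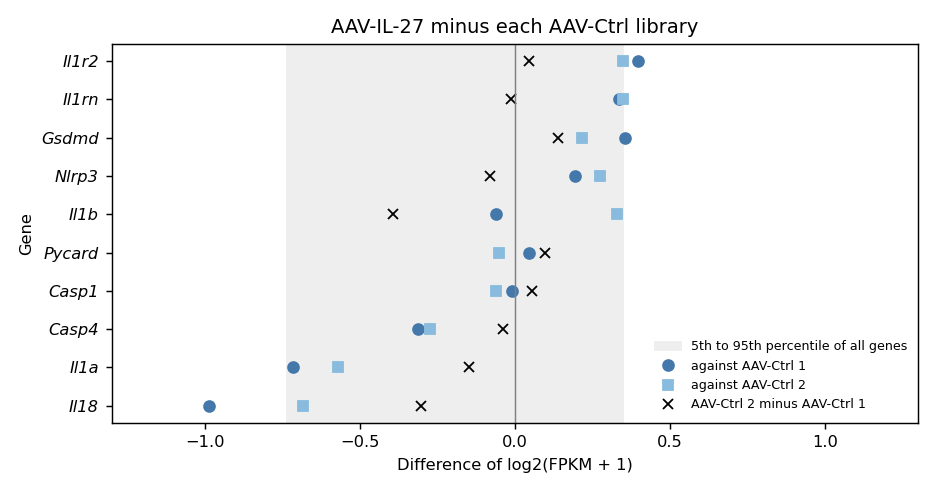
Difference of log2(FPKM + 1) between AAV-IL-27 and AAV-Ctrl 1 (circles) or AAV-Ctrl 2 (squares) for each member, with the difference between the AAV-Ctrl libraries (crosses). The grey band spans the 5th to the 95th percentile (-0.73 to 0.35) of the difference to the AAV-Ctrl mean over all genes compared; Il18 and Il1a lie at the lower edge and Il1r2 and Il1rn at the upper one.

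The sensor and the adaptor of the inflammasome were both detected. Nlrp3 (NCBI Gene 216799, chromosome 11 from 59541569 to 59566955, plus strand), whose product responds to potassium loss and other signs of cell stress, measured 47.4 and 44.8 FPKM in AAV-Ctrl 1 and 2 and 54.3 FPKM in AAV-IL-27. The AAV-IL-27 value was above both, with a log2 difference of 0.23 beside -0.081 between the AAV-Ctrl libraries, and 975 genes compared had a higher one. Pycard (NCBI Gene number 66824, minus strand of chromosome 7, from 127991373 to 127993867) encodes ASC, which links the sensor to caspase-1. It was at 7.95 and 8.56 FPKM in AAV-Ctrl 1 and 2 and at 8.23 FPKM in AAV-IL-27, between the AAV-Ctrl values. Its log2 difference was -0.0031, or 0.044 against AAV-Ctrl 1 and -0.051 against AAV-Ctrl 2. Its exons overlap those of Gm45205 on the opposite strand, a gene not analysed here. The level of Pycard depends on the transcript length used. RefSeq gives a gene span of 2495 bases and GENCODE M21 a transcript of 3800 nt that extends past it, and the length behind the deposited value is not given in the sources used here.

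The inflammatory caspases are neighbours on chromosome 9, with 1567 bases between them. Casp1 (NCBI Gene 12362, from 5298517 to 5307281, plus strand) encodes the protease that matures IL-1β and IL-18. It measured 28.95 and 30.1 FPKM in AAV-Ctrl 1 and 2 and 28.8 FPKM in AAV-IL-27, narrowly below both. These values nearly coincide, and the log2 difference of -0.035 became 0.0045 and 0.022 when the libraries were brought to the same FPKM total or scaled by median ratios. Casp4 (NCBI Gene 12363, from 5308849 to 5336791, plus strand) encodes caspase-11, which binds bacterial lipopolysaccharide in the cytosol. It was at 26.9 and 26.15 FPKM in AAV-Ctrl 1 and 2 and at 21.4 FPKM in AAV-IL-27, below both. The AAV-IL-27 value was 80.9% of the AAV-Ctrl mean of 26.5 ± 0.52 FPKM (SD, n = 2), a log2 difference of -0.29 beside -0.038 between the AAV-Ctrl libraries. It was not an extreme value among all genes, since 1419 of those compared were lower.

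Gsdmd, which encodes the pore-forming gasdermin D at the end of the pathway (NCBI Gene 69146, chromosome 15 from 75862144 to 75867408, plus strand), was abundant. It measured 64.9 and 71.6 FPKM in AAV-Ctrl 1 and 2 and 83.3 FPKM in AAV-IL-27, above both. The AAV-Ctrl mean was 68.3 ± 4.72 FPKM (SD, n = 2) and the log2 difference 0.29, against 0.14 between the AAV-Ctrl libraries.

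Ordered by mean level, Il1b was followed by Il1r2, Il1rn, Gsdmd, Nlrp3, Casp1, Casp4, Il18, Pycard and Il1a. FPKM is corrected for length, but the place of Pycard in this order depends on the transcript length used. Il1rn and Il1r2 changed places between the AAV-Ctrl libraries, and so did not differ beyond their spread. Casp1 was above Casp4 in each of the 3 libraries. 

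Ratios between genes of the same library do not depend on how the libraries are scaled. The ratio of Il1rn to Il1b was 0.28 and 0.37 in AAV-Ctrl 1 and 2 and 0.38 in AAV-IL-27, much as in AAV-Ctrl 2. Il18bp, which encodes a secreted protein that neutralises IL-18, measured 38.0, 41.1 and 45.4 FPKM. The ratio of Il18bp to Il18 was 3.35, 4.55 and 8.66 in the same order, 2.19 times the AAV-Ctrl mean in the AAV-IL-27 library. Casp4 to Casp1 gave 0.93, 0.87 and 0.74, and Pycard to Nlrp3 gave 0.17, 0.19 and 0.15. The AAV-IL-27 library was outside the AAV-Ctrl values in each of these 4 ratios, by a margin smaller than the gap between the AAV-Ctrl libraries for Il1rn to Il1b and for Pycard to Nlrp3 and by a larger one for Il18bp to Il18 and Casp4 to Casp1.

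**Figure D4:**
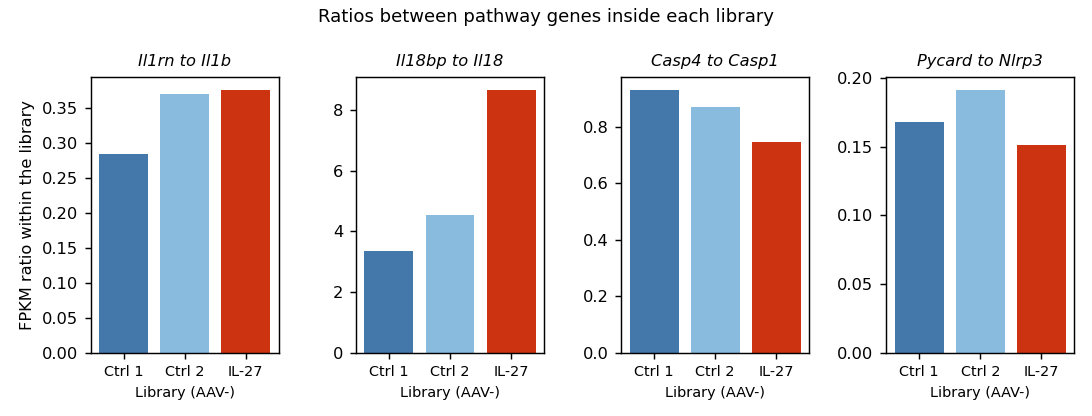
FPKM ratios of gene pairs within each library, 1 bar per library (both of AAV-Ctrl, then AAV-IL-27), axes from 0. The Il18bp to Il18 ratio stands at 8.66 in AAV-IL-27 beside 3.35 and 4.55 in AAV-Ctrl, and the other 3 ratios differ less.

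The wider pathway was measured through 58 further genes in 7 lists, of which 56 were found in the table and 44 had a mean FPKM of at least 1. Of the 44, 1 was lower than both AAV-Ctrl libraries by at least 1 log2 unit and 0 were higher, against the 2.32% and 0.307% of all genes given above, and their median log2 difference was 0.055. The gene past this step was Ctsc, which encodes cathepsin C, the protease that activates neutrophil elastase and its relatives. Ctsc measured 10.1 and 9.43 FPKM in AAV-Ctrl 1 and 2 and 4.17 FPKM in AAV-IL-27, and its log2 difference was -1.06. It was close to the limit, and under either rescaling of the libraries 0 of the further genes were past it. At 0.5 log2 units, 3 of the 44 further genes were lower and 1 was higher, against 7.01% and 1.57% of all genes.

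Of the other IL-1 family ligands, 1 of the 4 found reached a mean FPKM of 1. This was Il36g (listed under its older symbol Il1f9), which encodes the cytokine IL-36γ and was next to Il1b among the ligands measured here, at 278.1, 258.3 and 216.9 FPKM. The AAV-IL-27 value was below both, with a log2 difference of -0.30. Of 5 receptors and binding proteins compared, 0 were past 1 log2 unit. Il18rap, a subunit of the IL-18 receptor, was the most abundant at 106.7, 93.6 and 105.0 FPKM, followed by Il18bp.

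Of 12 receptor signalling genes compared, 0 were past 1 log2 unit, and the list ranged from -0.23 to 0.48. The adaptor gene Myd88 measured 135.5, 124.1 and 122.8 FPKM, and Tab2, which encodes a scaffold of the kinase TAK1, 65.3, 59.6 and 70.1 FPKM.

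Among the other sensors, 8 of 11 were compared and 0 were past 1 log2 unit. The most abundant was Nlrp12 at 47.3, 44.9 and 45.5 FPKM, close to Nlrp3 itself, followed by Naip2, a detector of bacterial secretion systems, at 28.6, 29.15 and 28.1 FPKM. The transcripts of Naip5 and Naip6 are 96.9% identical, so the values of Naip genes are uncertain where fragments were shared. Aim2, which encodes a sensor of cytosolic DNA and was singled out after its values were seen, measured 9.45, 7.83 and 15.8 FPKM. With a log2 difference of 0.81, it was the only further gene compared that was higher than both AAV-Ctrl libraries by at least 0.5. Of all genes, 1.57% were higher by that step.

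Of 8 regulators and channels listed, 6 were compared and 0 of these were past 1 log2 unit. The channel genes P2rx7 (1.03, 0.99 and 0.51 FPKM) and Panx1 (0.99, 0.89 and 0.31 FPKM) were too low to be compared. Both were below both AAV-Ctrl libraries, and they were named after their values were seen. Txnip, whose product binds NLRP3, was the most abundant at 406.2, 307.9 and 539.9 FPKM, with a log2 difference of 0.61 where the AAV-Ctrl libraries differed by -0.40. Pstpip1, which encodes a partner of pyrin, was at 160.0, 164.3 and 171.0 FPKM. Brcc3, which encodes a deubiquitinase of NLRP3, was lower than both AAV-Ctrl libraries by at least 0.5, at 2.91, 3.19 and 1.53 FPKM, and it too was named after its values were seen.

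Of 7 cell death genes compared, 0 were past 1 log2 unit. Ninj1, whose product ruptures the plasma membrane after gasdermin pores have formed, led at 89.2, 97.8 and 133.0 FPKM, above both AAV-Ctrl libraries with a log2 difference of 0.51. Gsdme (listed as Dfna5), a gasdermin opened by caspase-3, followed at 81.0, 75.9 and 86.2 FPKM, a level similar to Gsdmd. Ripk3, a kinase of necroptosis also named after its values were seen, was lower than both by at least 0.5, at 2.66, 3.14 and 1.42 FPKM. Of the 5 proteases and serpins compared, 1 was lower, Ctsc. Serpinb1a, an inhibitor of neutrophil serine proteases, was at 181.7, 178.25 and 155.2 FPKM, and Elane, the neutrophil elastase gene, at 17.95, 20.9 and 26.1 FPKM.

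**Figure D5:**
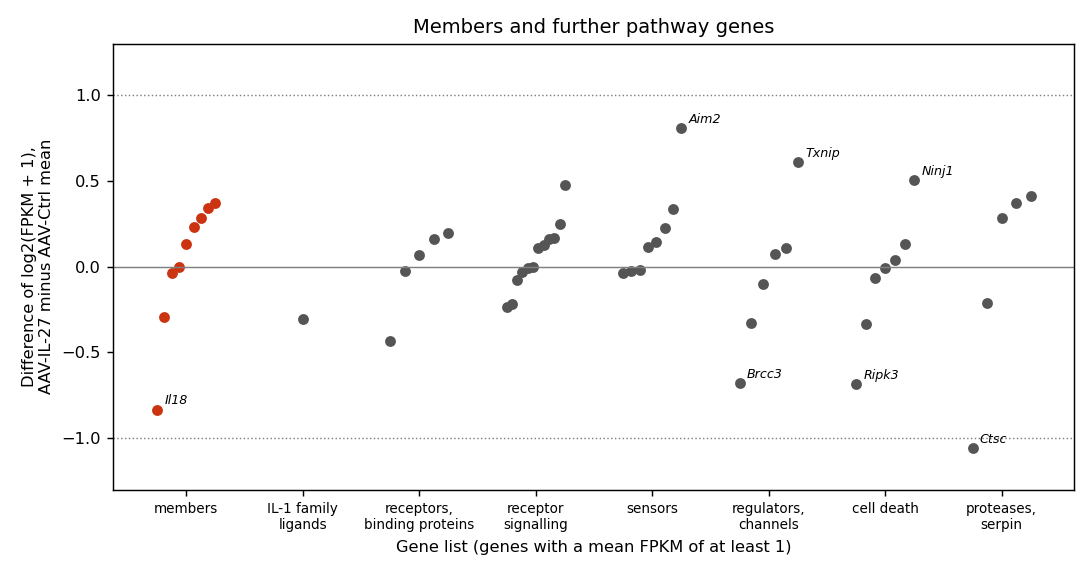
Difference of log2(FPKM + 1), AAV-IL-27 minus the AAV-Ctrl mean, for the 9 members (red) and the 44 further genes (grey) with a mean FPKM of at least 1, 1 point per gene in each list, with genes at 0.5 or more from 0 named. Dotted lines mark 1 log2 unit from the AAV-Ctrl mean, and Ctsc (-1.06) lies below the lower one.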

How the data were processed

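Ly6G+ BM cells were profiled in 2 AAV-Ctrl libraries and 1 AAV-IL-27 library. Per the labels, oligo-dT selection preceded cDNA synthesis with dUTP and DNBSEQ sequencing, and whether strand was used in counting is not given. The authors deposited FPKM values with 2 decimals, keyed by NCBI Gene number. The submitters' processing notes name mm10. The aligner and counting tool are not given in the sources used here. The table has 1 more value column, whose header names IL-27 but matches no listed sample, and it was not used. Of 16073 rows, 1 without a symbol was left out.

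Differences were log2(FPKM + 1) of AAV-IL-27 minus the mean of AAV-Ctrl, over the 9130 genes whose mean FPKM reached 1. A gene was called lower or higher at 1 log2 unit or more from each AAV-Ctrl library. With 1 AAV-IL-27 library there was no test, and p-values were not computed. Depth was fitted to steps of low FPKM values of genes listed with 1 RefSeq transcript that matched a single GENCODE M21 transcript. The length of that transcript was used, with 70 nt subtracted. Of 233, 202 and 204 low values, 79.8%, 76.2% and 77.9% lay within 0.2 of a whole fragment, so counts of fragments are approximate and a count test was not applied.

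The members and lists were chosen with earlier results of these data known. Named genes are the members, list genes past 1 log2 unit (for cell type lists, only examples), and the 2 most abundant of each list. Some genes outside this rule were also named, among them Ly6g, Irf8, Ccr2, Adgre1, Il1r1, Naip5, Naip6, Aim2, P2rx7, Panx1, Brcc3 and Ripk3. Promoters and positions are from RefSeq (GRCm38.p6, the same assembly as mm10), and 9 of the 10 members matched a promoter. Transcripts were compared with BLAST 2.17.0. Scripts ran under matplotlib 3.10.9, scipy 1.17.1, pandas 2.3.3, numpy 2.4.6 and Python 3.11.15 and were tested on simulated data. Alternatives were pseudocounts of 0.1 and 0.01, other filters and thresholds, both rescalings and leaving out each AAV-Ctrl library.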

Additional observations from a re-analysis of the deposited data

How the results depend on the processing

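With a threshold of 1 log2 unit, 0 members were past it under other pseudocounts, other filters, both rescalings or without either AAV-Ctrl library, each changed alone, and 1 (Il18) was lower at 0.5. With a pseudocount of 0.1 and no filter on low values, an alternative chosen after seeing the data, 1 member (Il1a) was lower. Of 60 member values under alternatives, 49 lay within 1 SD of the AAV-Ctrl libraries from the main log2 difference. Those without an AAV-Ctrl library could not lie further away, since leaving out 1 of 2 libraries moves a value by less than their SD. Of the 10 members, 7 kept their sign. Il1b, Pycard and Casp1, with differences near 0, did not.

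The members' median of 0.13 was 0.19 after median-ratio rescaling, 0.065 without a filter, 0.065 with a pseudocount of 0.1 and no filter, and from 0.044 to 0.22 without an AAV-Ctrl library. Il1b is the median gene, and its AAV-Ctrl values differ. For the further genes, the count of 1 lower gene became 0 under either rescaling, 3 at a threshold of 0.5 (with 1 higher) and 2 with a pseudocount of 0.1 and no filter. Their median of 0.055 was 0.095 with equal totals, 0.11 with median ratios, 0.11 at a mean FPKM of at least 5, -0.0069 without a filter, -0.0041 with a pseudocount of 0.1 and no filter, and 0.024 to 0.038 without an AAV-Ctrl library. Over all genes, the median became 0.031 and 0.047 under the rescalings. Without an AAV-Ctrl library, AAV-IL-27 over AAV-Ctrl ran from 1.90 to 2.59 for Il18bp to Il18, and the 4 ratios stayed on the same side of 1.

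All differences rest on 1 AAV-IL-27 library. Depth limits Il1a, with about 9 to 39 fragments. The labels number the replicates but state no pairing of mice, so no paired analysis was made.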
